A study of Mus musculus with 6 samples.

Results

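The small leucine-rich proteoglycans described here are 10 of the 35498 genes measured, taken as a named family: Dcn, Bgn, Lum, Fmod, Ogn, Aspn, Prelp, Omd, Podn and Kera. All 10 were found in the annotation, and 9 had enough reads to be tested. Myocardial infarction had been made in C57BL/6J mice of 8 to 10 weeks by tying the left anterior descending artery. Ventricle below the ligature was collected 7 days later, and its polyadenylated RNA was sequenced. The 3 Runx1_FB_KO mice were Postn CreER+/- with the Runx1 fl allele, and the 3 CTL mice were Postn CreER+/- with Runx1 WT. All 6 mice were fed tamoxifen from surgery to collection. The recombinase is driven by the promoter of periostin, so deletion is limited to cells that use that promoter, while the RNA came from all cells of the tissue. The labels do not say whether both Runx1 alleles were floxed. Runx1_FB_KO replicate 1 and CTL replicates 2 and 3 were male, and the other 3 mice were female. Nothing in the labels pairs mice across groups.

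Small leucine-rich proteoglycans are secreted proteins with a curved core of leucine-rich repeats, most of which carry sugar chains. They bind collagen fibrils and set their thickness and spacing, and several also bind TGF-beta or cell surface receptors. In the heart they are made mainly by fibroblasts and are laid down with collagen in the scar. The family is grouped by sequence. Class I holds decorin (Dcn), biglycan (Bgn) and asporin (Aspn). Class II holds lumican (Lum), fibromodulin (Fmod), prolargin (Prelp), osteomodulin (Omd) and keratocan (Kera). Mimecan (Ogn) belongs to class III, and podocan (Podn) is a longer, more distant relative.

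Several of the genes lie side by side in GRCm38. Dcn, Lum and Kera span 134.1 kb of chromosome 10 (97479609 to 97613692), Aspn, Omd and Ogn span 80.1 kb of chromosome 13 (49544443 to 49624501), and Prelp and Fmod lie within 138.0 kb of chromosome 1 (133910304 to 134048277). Bgn is on the X chromosome (73483602 to 73495933) and Podn on chromosome 4 (108014791 to 108096445).

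The libraries held 16598561 to 19987279 estimated reads. Runx1, the targeted gene, was at 17.5, 10.9 and 67.4 CPM (counts per 1000000 reads, TMM-scaled) in Runx1_FB_KO replicates 1, 2 and 3, against 96.4, 86.9 and 85.5 CPM in CTL (log2 fold change -1.48, SE 0.63, edgeR adjusted p = 0.154). The other 2 knockout libraries alone gave -2.61 against CTL (SE 0.22, edgeR adjusted p = 0.000142). Runx1_FB_KO replicate 3 thus kept most of the CTL level, and it stood apart from the other 2 knockout libraries in most measures below. Reads of mitochondrial genes made up 24.46%, 19.59% and 10.36% of the Runx1_FB_KO libraries, against 5.69%, 7.1% and 5.36% of the CTL libraries. All 13 such genes had positive log2 fold changes, and mt-Nd3 (2.34) and mt-Atp8 (2.002), with the smallest p, each had an edgeR adjusted p of 0.0682. The 10 cardiomyocyte markers, each detected, summed to 27070 to 99361 CPM in Runx1_FB_KO and 10889 to 13652 CPM in CTL. In tissue of this kind, fewer cells of a type and less RNA per cell cannot be told apart.

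No family member passed the threshold with all 6 libraries, and log2 fold changes varied among the members. Fmod, Aspn, Bgn, Ogn, Prelp and Lum had lower means in Runx1_FB_KO, with log2 fold changes of -1.77 to -0.60. With a cardiomyocyte marker score as a covariate all 6 turned positive, at 0.11 to 1.99, with edgeR adjusted p of 0.90 to 0.98. That score, relative to the CTL mean, was 2.85, 3.17 and 1.29 in Runx1_FB_KO replicates 1, 2 and 3. In CTL replicates 1, 2 and 3 it was 0.01, 0.22 and -0.23. The score thus followed the groups, so this fit cannot tell genotype and score apart. Dcn, Podn and Omd had log2 fold changes of -0.09 to 0.09. Kera had 1 read in all. Called members were 0 of 9, where 0 of 14237 genes (0%) were called by edgeR at an adjusted p under 0.05. At an unadjusted p under 0.05 there were 0 of 9 members and 4619 genes (32.4%). DESeq2 called 0 members and 2810 genes (19.6%), and limma-voom called 0 of either. Without a low count filter edgeR called 0 members and 4.4% of genes, 0.193% lower and 4.21% higher. The median log2 fold change was -0.67 over the 9 members tested and -0.06 over all genes tested.

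**Figure D1:**
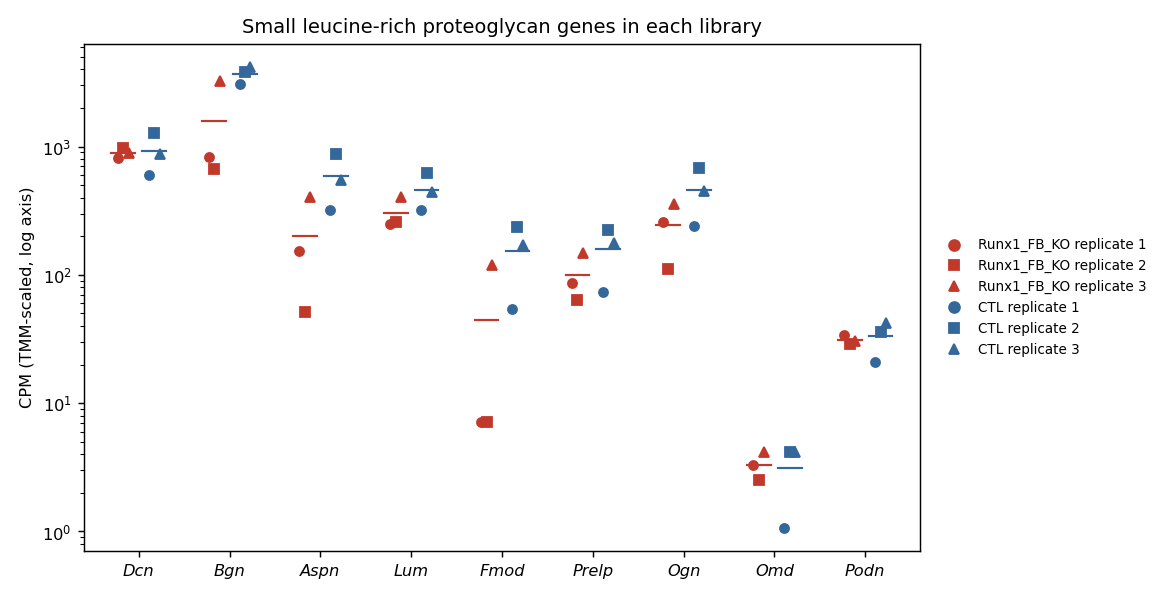
Level of each proteoglycan gene in CPM on a log axis, with 1 point per library and a line at the group mean (Runx1_FB_KO red, CTL blue, n = 3 each). Runx1_FB_KO replicates 1 and 2 lay far below CTL for Bgn, Aspn and Fmod but within CTL for Dcn, and for every gene the CTL range took in Runx1_FB_KO replicate 3. Kera, with 1 read in all, is not drawn.

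The promoters of Fmod, Aspn, Bgn and Ogn are shown because these genes had the most negative log2 fold changes of the family. Each is the 250 bases before the annotated start in RefSeq (GRCm38.p6), in the direction of the gene, all on the plus strand. Capitals mark matches to motifs searched on both strands. The core bound by RUNX factors was searched as TGTGGT. The element bound by TEAD factors was searched as GGAATG. The element bound by AP-1 was searched as TGANTCA. The TATA box was searched as TATAAA.
Fmod (chr1:134037004-134037253): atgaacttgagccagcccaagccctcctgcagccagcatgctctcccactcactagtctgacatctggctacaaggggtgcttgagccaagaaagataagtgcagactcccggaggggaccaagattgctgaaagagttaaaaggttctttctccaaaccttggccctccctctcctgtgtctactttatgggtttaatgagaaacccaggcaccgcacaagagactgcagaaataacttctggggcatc
Aspn (chr13:49544193-49544442): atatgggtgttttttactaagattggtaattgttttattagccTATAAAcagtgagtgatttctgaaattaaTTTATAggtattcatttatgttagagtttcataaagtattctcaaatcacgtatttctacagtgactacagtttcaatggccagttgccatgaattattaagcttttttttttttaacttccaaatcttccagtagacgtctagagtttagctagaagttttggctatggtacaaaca
Bgn (chrX:73483351-73483600): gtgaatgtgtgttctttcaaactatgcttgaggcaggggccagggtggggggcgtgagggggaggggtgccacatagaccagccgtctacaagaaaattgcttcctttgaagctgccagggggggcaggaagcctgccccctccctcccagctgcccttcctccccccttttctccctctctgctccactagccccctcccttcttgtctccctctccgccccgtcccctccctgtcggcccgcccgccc
Ogn (chr13:49607765-49608014): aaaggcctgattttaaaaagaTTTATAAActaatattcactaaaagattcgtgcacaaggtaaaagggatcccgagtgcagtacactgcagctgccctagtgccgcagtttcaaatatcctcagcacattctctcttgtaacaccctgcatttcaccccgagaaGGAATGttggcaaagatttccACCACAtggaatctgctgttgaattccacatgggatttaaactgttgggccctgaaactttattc

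The table held 9 promoters of 8 members, and those of Dcn and Lum were not searched. In this window the RUNX core was found in 1 of the 9, that of Ogn, 65 bases before the start on the reverse strand. Of 32851 mouse promoters of the same length, 14.1% hold it. GGAATG was among the 9 also found only in Ogn (12.6% of all promoters), and TATAAA in Ogn and Aspn (12.4%), with 2 matches each that in Ogn overlap. The TATAAA matches began 229 and 227 bases before the start in Ogn, and 207 and 178 bases before it in Aspn. TGANTCA was in none of the 9 and in 6.75% of all. Base composition differed widely, with 64.4% G or C in Bgn, 51.2% in Fmod, 42.0% in Ogn and 30.0% in Aspn, beside a median of 52.4% over all promoters.

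Among class I genes, biglycan was the most abundant per length in CTL. Bgn, whose protein carries chondroitin or dermatan sulfate chains and can signal through Toll-like receptors, had 832, 673 and 3233 CPM in Runx1_FB_KO replicates 1, 2 and 3, against 3089, 3822 and 4164 CPM in CTL replicates 1, 2 and 3. Runx1_FB_KO replicates 1 and 2 were far below every CTL library, while replicate 3 lay just above CTL replicate 1. This gave a log2 fold change of -1.22, with an SE of 0.64 and an edgeR adjusted p of 0.216. On the TPM scale the groups did not overlap, with 310, 247 and 2073 TPM in Runx1_FB_KO and 2321, 2793 and 3221 TPM in CTL. Bgn was the 1 member of 9 separated on that scale, on which 53.8% of all genes were, 46.6% lower and 7.2% higher in Runx1_FB_KO.

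Asporin, a class I protein with an aspartate-rich start in place of sugar chains, was likewise lowest in Runx1_FB_KO replicates 1 and 2. Aspn had 153, 50.9 and 402 CPM in Runx1_FB_KO, against 323, 879 and 553 CPM in CTL. Runx1_FB_KO replicate 3 again lay inside the CTL range and the other 2 knockout libraries below it. This was a log2 fold change of -1.53, with an SE of 0.73 and an edgeR adjusted p of 0.186.

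Decorin, the prototype of the family and a binder of both collagen and TGF-beta, was of like mean CPM in both groups. Dcn had 819, 969 and 895 CPM in Runx1_FB_KO and 604, 1274 and 880 CPM in CTL. All 3 knockout libraries lay inside the CTL range. The mean was 894 ± 74.6 CPM in Runx1_FB_KO and 919 ± 337 CPM in CTL (SD, n = 3 each), with a log2 fold change of -0.04 (SE 0.32, edgeR adjusted p = 0.937). On the TPM scale the mean was lower in Runx1_FB_KO, at 593 ± 206 TPM against 977 ± 344 TPM in CTL, and the groups overlapped. Scaled by library size alone, Dcn came to -0.50 and the median over all genes to -0.52, so Dcn stayed close to the bulk of genes under either scaling.

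Among class II genes, fibromodulin had the widest range. Fmod, a keratan sulfate proteoglycan that guides collagen fibril growth and cross-linking, had 7.14, 7.18 and 120 CPM in Runx1_FB_KO, against 54.3, 237 and 170 CPM in CTL. In reads these were 109, 92 and 2351 in Runx1_FB_KO, against 1222, 5315 and 3416 in CTL. Runx1_FB_KO replicates 1 and 2 were below every CTL library, and replicate 3 lay inside CTL. The log2 fold change was -1.77 with an SE of 1.15 (edgeR adjusted p = 0.299), and within CTL the highest library exceeded the lowest by 4.37-fold.

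Lumican, which also binds fibrillar collagen, was at 249, 257 and 406 CPM in Runx1_FB_KO and 320, 618 and 443 CPM in CTL. That is a log2 fold change of -0.60, with an SE of 0.33 and an edgeR adjusted p of 0.231. Prelp, whose basic start binds heparin and heparan sulfate, was at 87.1, 63.7 and 147 CPM in Runx1_FB_KO and 73.9, 223 and 176 CPM in CTL. For Lum only Runx1_FB_KO replicate 3 reached the CTL range, and for Prelp replicates 1 and 3 did. Prelp had a log2 fold change of -0.67, with an SE of 0.46 and an edgeR adjusted p of 0.324.

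Osteomodulin, known mainly from bone, was low. Omd had 50, 32 and 82 reads in Runx1_FB_KO and 24, 94 and 83 reads in CTL, a log2 fold change of 0.09 with an SE of 0.55 and an edgeR adjusted p of 0.914. Its sign turned without CTL replicate 1 (-0.32), so no direction can be given. Keratocan, a proteoglycan of the cornea, had 0 reads in each Runx1_FB_KO library and 0, 1 and 0 reads in CTL replicates 1, 2 and 3. A count of 0 allows up to 3 reads, or 0.15 to 0.181 per 1000000 reads in these libraries, a limit that covers counting error only. Kera was therefore not detectable at this depth in either group, although Dcn and Lum beside it on chromosome 10 were abundant.

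Ogn, which encodes mimecan, was at 260, 111 and 357 CPM in Runx1_FB_KO and 240, 681 and 451 CPM in CTL. The highest 2 values were both CTL and the lowest was Runx1_FB_KO replicate 2, with overlap between. Ogn had a log2 fold change of -0.91, with an SE of 0.52 and an edgeR adjusted p of 0.245. Podocan is a collagen binder with like mean CPM in both groups. Podn had 33.7, 29.1 and 30.6 CPM in Runx1_FB_KO and 21.1, 35.9 and 42.4 CPM in CTL, with a log2 fold change of -0.09 (SE 0.26, edgeR adjusted p = 0.824). All 3 knockout libraries lay inside the CTL range in CPM, which spanned 2.01-fold. On the TPM scale the Podn mean was 10.9 TPM in Runx1_FB_KO and 19.5 TPM in CTL, with overlap.

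In CPM the groups overlapped for all 9 tested members, while 39% of all genes did not overlap, in that 18.8% had every knockout library below CTL and 20.2% had every knockout library above it. Overlap came from both sides. Runx1_FB_KO replicate 3 was the highest knockout library for 7 of the 9 genes, all but Dcn and Podn. CTL replicate 1, the only female CTL mouse, was the lowest CTL library for all 9.

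Leaving out Runx1_FB_KO replicate 3 changed the calls, for the members as for all genes. Bgn, Aspn, Fmod and Lum were then lower past the threshold, 4 of 9 members, where 47.6% of all genes tested were called, 22.5% lower and 25.1% higher. Log2 fold changes were -4.38 for Fmod (SE 0.64, edgeR adjusted p = 0.00144), -2.48 for Aspn (SE 0.58, 0.0104), -2.25 for Bgn (SE 0.23, 0.000308) and -0.82 for Lum (SE 0.27, 0.0397). Ogn (-1.26) and Prelp (-1.02) did not pass, with edgeR adjusted p of 0.0728 and 0.087, although their changes were larger than that of Lum. In other fits without that library, limma-voom called 4 members and 44% of genes (19.1% lower, 24.9% higher), DESeq2 called 4 and 46.1% (22.2% lower, 23.9% higher), and edgeR with sex as a covariate called 4 and 49.1% (23.3% lower, 25.8% higher), with Ogn in place of Lum in the last. Dcn, Podn and Omd stayed at 0.002, -0.03 and -0.07, each with an SE of 0.28 to 0.60. All 6 libraries were in turn omitted, and omission of any other left 0 members and 0 of all genes called. Without CTL replicate 2 the log2 fold changes were -0.33 for Lum, -0.51 for Ogn and -0.33 for Prelp. The value nearest to 0 was -0.86 for Bgn and -1.07 for Aspn, both without Runx1_FB_KO replicate 2, and -1.27 for Fmod, without Runx1_FB_KO replicate 1.

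**Figure D2:**
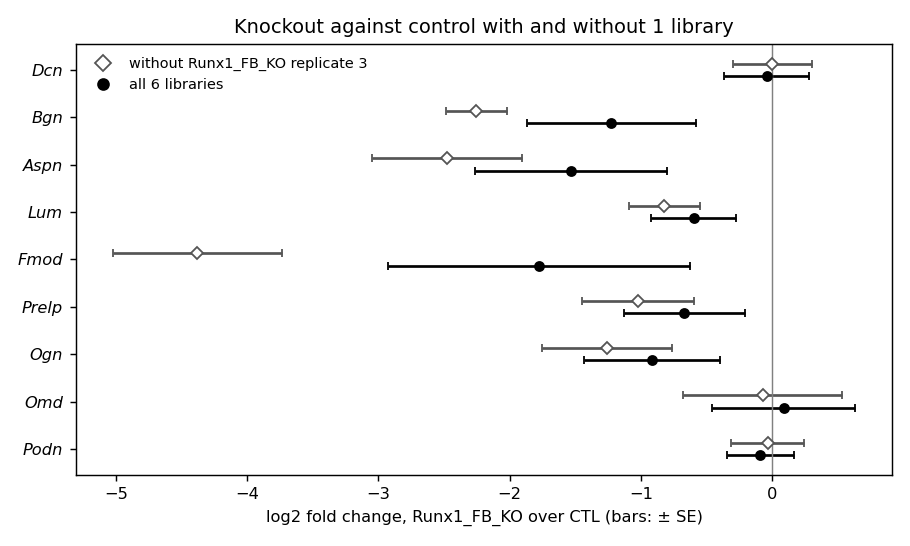
Log2 fold change of Runx1_FB_KO over CTL for each gene with its standard error, from all 6 libraries (filled circles) and without Runx1_FB_KO replicate 3 (open diamonds). Fmod was at -1.77 with all libraries and -4.38 without that one, and Bgn at -1.22 and -2.25, while Dcn, Omd and Podn stayed near 0 in both fits.

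The makeup of the family was described per length, with no test. Bgn took 30.0%, 26.2% and 54.4% of the summed TPM of the 10 genes in Runx1_FB_KO replicates 1, 2 and 3, against 62.7%, 46.6% and 58.1% in CTL. Dcn took 42.4%, 54.5% and 21.7% in Runx1_FB_KO, against 17.2%, 22.1% and 17.5% in CTL. Bgn was the leading transcript in all 3 CTL libraries and in Runx1_FB_KO replicate 3, and Dcn led in Runx1_FB_KO replicates 1 and 2. Bgn and Dcn filled the first 2 ranks in every library.

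Below these, Aspn was the third most abundant in all 3 CTL libraries and in Runx1_FB_KO replicate 3, and the fifth in the other 2 knockout libraries. In CTL the mean levels were 476 ± 216 TPM for Aspn, 336 ± 105 TPM for Lum and 327 ± 152 TPM for Ogn (SD, n = 3 each). The SD ranges around these means overlapped, although the Aspn mean lay above that of Lum. Within each CTL library Aspn was above both Lum and Ogn, while the order of Lum and Ogn varied. Fmod at 85.9 ± 51.4 TPM and Prelp at 75.1 ± 35.7 TPM in CTL had means within each other's SD. Both were above Podn at 19.5 ± 6.62 TPM and Omd at 3.95 ± 2.24 TPM. In Runx1_FB_KO replicates 1 and 2 Fmod was at 1.999 and 1.996 TPM, below Podn (9.39 and 8.32 TPM). The summed TPM of the family was 1034, 943 and 3811 in Runx1_FB_KO and 3703, 5992 and 5544 in CTL. As a share of reads it was 0.187%, 0.158% and 0.603% in Runx1_FB_KO, against 0.557%, 0.899% and 0.835% in CTL.

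**Figure D3:**
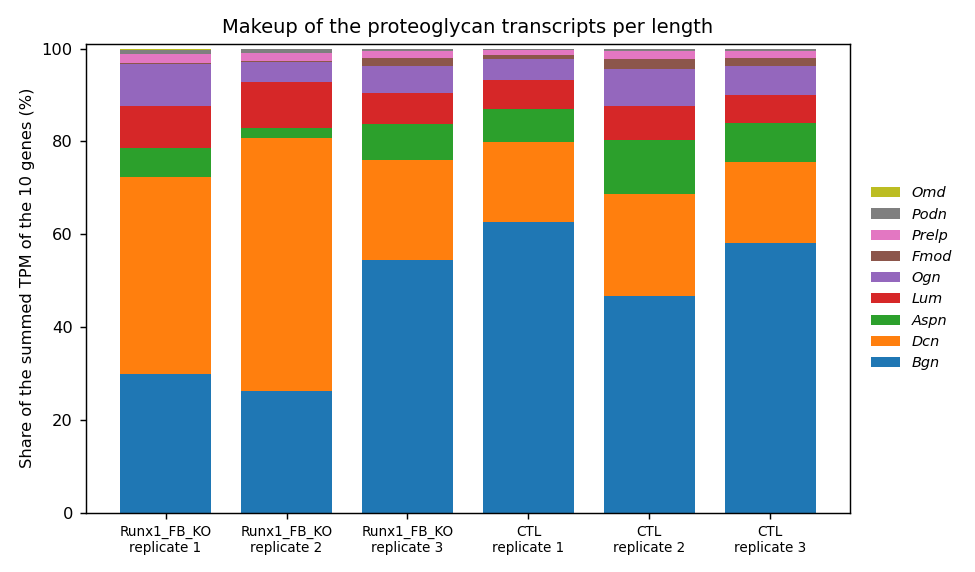
Share of the summed TPM of the 10 genes taken by each gene in each library (%), Runx1_FB_KO left and CTL right. Bgn fills 46.6% to 62.7% of the CTL bars and of the Runx1_FB_KO replicate 3 bar (54.4%), and Dcn is the largest block in Runx1_FB_KO replicates 1 and 2.

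Ratios within a library do not depend on how libraries are scaled, and 6 were compared. With 3 libraries against 3 the smallest p an exact permutation test can give is 0.1, so none could pass. The Bgn to Dcn ratio of TPM was 0.706, 0.480 and 2.51 in Runx1_FB_KO replicates 1, 2 and 3, against 3.64, 2.11 and 3.33 in CTL. On the log2 scale the difference was -1.64, and the groups overlapped (exact two-sided permutation p = 0.2, adjusted over the 6 ratios 0.2).

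Lum to Dcn, neighbours on chromosome 10, held a narrow ratio in CTL. It was 0.211, 0.183 and 0.313 in Runx1_FB_KO, against 0.363, 0.334 and 0.346 in CTL, a log2 difference of -0.60 with no overlap (exact permutation p = 0.1, adjusted 0.15). Aspn to Dcn was 0.147, 0.0412 and 0.349 in Runx1_FB_KO and 0.412, 0.524 and 0.487 in CTL, also without overlap. Its log2 difference was -1.88, with the same exact permutation p = 0.1 and adjusted value of 0.15, and it was -1.06 without Runx1_FB_KO replicate 2. For these 2 ratios Runx1_FB_KO replicate 3, although nearest to CTL, still lay below all 3 CTL libraries.

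Neighbours on chromosome 13 were compared as well. Aspn to Ogn was 0.681, 0.530 and 1.29 in Runx1_FB_KO, against 1.54, 1.46 and 1.40 in CTL (log2 difference -0.92, exact permutation p = 0.1, adjusted 0.15). Omd to Ogn had a difference of the opposite sign, at 0.0219, 0.0397 and 0.0201 in Runx1_FB_KO and 0.008, 0.0107 and 0.016 in CTL (log2 difference 1.22, exact permutation p = 0.1, adjusted 0.15), with Omd resting on at most 94 reads. On chromosome 1, Fmod to Prelp was 0.0963, 0.133 and 0.966 in Runx1_FB_KO, against 0.845, 1.25 and 1.14 in CTL. There the groups overlapped (log2 difference -2.20, exact permutation p = 0.2, adjusted 0.2).

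**Figure D4:**
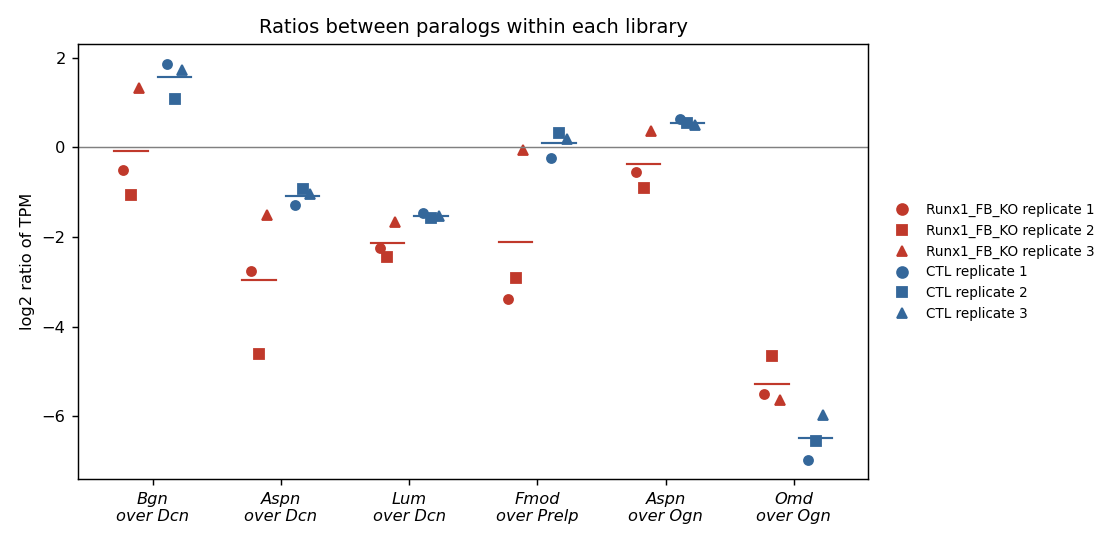
Log2 ratio of TPM between pairs of family members in each library, with a line at the group mean (Runx1_FB_KO red, CTL blue, n = 3 each). Runx1_FB_KO lies wholly below CTL for Aspn over Dcn, Lum over Dcn and Aspn over Ogn, and wholly above it for Omd over Ogn.

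Reads of Dcn were divided between 2 main transcripts that differ in the first exon and encode the same protein. Dcn-201 begins at 97479609 on chromosome 10 and Dcn-202 begins 2758 bases downstream, at 97482367, each with a first exon of 181 bases. Dcn-202 took 16.9%, 22.9% and 5.0% of the gene's TPM in Runx1_FB_KO replicates 1, 2 and 3, against 4.25%, 5.51% and 6.11% in CTL. Runx1_FB_KO replicates 1 and 2 were above CTL, and replicate 3 was inside it. In CPM Dcn-202 was at 138, 222 and 44.7 in Runx1_FB_KO and 25.7, 70.2 and 53.6 in CTL. Dcn-201 was at 677, 745 and 847 in Runx1_FB_KO and 577, 1201 and 821 in CTL, with the groups overlapping. This split was noticed in the data and carries no test. Salmon divided the reads between transcripts that share most of their sequence.

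**Figure D5:**
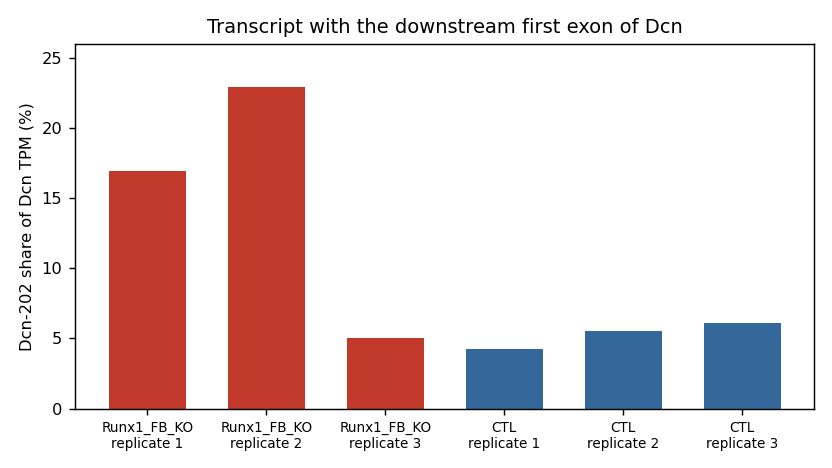
Share of Dcn TPM given to Dcn-202, the transcript with the downstream first exon, in each library (%). It is 16.9% and 22.9% in Runx1_FB_KO replicates 1 and 2 and 4.25% to 6.11% in the other 4 libraries.

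Apart from Podn, the other members were mostly carried by 1 transcript. Bgn-201 held 95.4% to 98.6% of Bgn TPM in every library, and Aspn-201 held 94.0% to 99.3% of Aspn. Podn was split, with 19.9% to 62.1% of its TPM in Podn-203 and 16.2% to 54.8% in Podn-202. Podn-201, whose first exon of 43 bases starts far upstream of the others, was given 0 reads in each Runx1_FB_KO library and 210.2, 319.1 and 0 reads in CTL. Like the split of Dcn, this rests on how Salmon divided the reads of 1 gene.

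The genes with profiles nearest to those of Dcn and Bgn were picked over the same 6 libraries. Their log2 fold changes therefore follow from the choice and are description only. Among 8113 candidates, the 5 nearest to Dcn over the 6 libraries were Npr1, Ncoa4, Net1, Pdlim3 and Atp1b2, at root mean square distances of 0.096 to 0.13 on the log2 scale. Their own log2 fold changes ran from -0.18 to 0.05. The 5 nearest to Bgn were Cdh3, Adamtsl3, P3h3, Cd109 and Slc1a4, at 0.085 to 0.125, with log2 fold changes of -1.39 to -1.12. Dcn and Bgn lay 1.11 apart. The median distance of the candidates was 0.445 from Dcn and 1.11 from Bgn. Within the family Podn was nearest to Dcn (0.261) and Aspn nearest to Bgn (0.521).

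Markers of fibroblast states and of other cells were read beside these values. The 10 activated fibroblast markers, all detected, summed to 1101, 727 and 4960 CPM in Runx1_FB_KO and 4190, 6484 and 5318 CPM in CTL, an order of libraries like that of Bgn, Aspn and Fmod. Postn itself was at 579, 322 and 2338 CPM in Runx1_FB_KO and 1540, 3522 and 2561 CPM in CTL. The 10 resting fibroblast markers, all detected, summed to 2599, 2643 and 1680 CPM in Runx1_FB_KO and 1451, 2002 and 1967 CPM in CTL. Of the 10, 6 had negative and 4 positive log2 fold changes (median -0.25). Gsn, which other cells express too, was at 1533, 1739 and 508 CPM in Runx1_FB_KO and 365, 547 and 607 CPM in CTL. The other 9 summed to 1066, 904 and 1172 CPM in Runx1_FB_KO and 1086, 1455 and 1360 CPM in CTL. Pdgfra, a receptor that defines fibroblasts, was at 101.4, 101.7 and 112.3 CPM in Runx1_FB_KO and 146, 160 and 143 CPM in CTL. Scara5, Dpep1 and Pi16 of the same 10 markers went the other way, with log2 fold changes of 1.92, 0.45 and 0.34. Scara5 was at 50.5, 50.4 and 8.07 CPM in Runx1_FB_KO and 3.25, 17.6 and 7.81 CPM in CTL. Macrophage markers, all 10 detected, summed to 1269 to 3219 CPM in Runx1_FB_KO and 3167 to 5086 CPM in CTL. Endothelial markers summed to 1437 to 1677 CPM in Runx1_FB_KO and 1327 to 1465 CPM in CTL. Smooth muscle and pericyte markers summed to 3498 to 3803 CPM in Runx1_FB_KO and 3001 to 4005 CPM in CTL. Most of that sum was Des, at 2164, 2370 and 2290 CPM in Runx1_FB_KO and 2052, 2835 and 2809 CPM in CTL. Of these 10 markers, 6 had negative and 4 positive log2 fold changes, from -1.66 for Cnn1 to 2.17 for Abcc9. The part of these markers, and of the cardiomyocyte and mitochondrial reads, in the members' values was not tested.

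Chondrocyte and tendon markers summed to 20.0, 12.5 and 112 CPM in Runx1_FB_KO and 92.0, 139 and 124 CPM in CTL. These sums put the libraries in the same order as those of the activated fibroblast markers, so that order was not particular to fibroblast markers. Each of the 10 had a read in some library, though Matn1 and Col9a1 were near 0. Epicardial and mesothelial markers, all 8 detected, summed to 161 to 199 CPM in Runx1_FB_KO and 83.5 to 306 CPM in CTL. They were lowest in CTL replicate 1, where the 9 tested family members also had their lowest CTL values. The part of these cells in the members' values was not tested.

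Other genes of the pathway were read from the same fit, and 0 of any list passed at the edgeR threshold with all 6 libraries. Among 9 further relatives of the family, 7 were tested, 5 with negative and 2 with positive log2 fold changes (median -0.18, all genes -0.06). The 2 with the smallest p were Podnl1, a podocan-like gene, at 0.589, 0.234 and 1.48 CPM in Runx1_FB_KO and 6.89, 3.57 and 2.49 CPM in CTL (log2 fold change -2.44, edgeR adjusted p = 0.0873), and Tsku, which encodes tsukushi, a secreted regulator of growth factor signals (-0.85, adjusted p = 0.156). Ecm2, which neighbours the chromosome 13 members, was at 37.9 to 47.8 CPM in Runx1_FB_KO and 30.6 to 67.2 CPM in CTL.

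Of 28 genes that build chondroitin and dermatan sulfate chains, 27 were tested, and 24 had negative and 3 positive log2 fold changes (median -0.70). In 17 of the 27 every knockout library lay below CTL, beside 18.8% of all genes. Without Runx1_FB_KO replicate 3, 18 of the 27 were called lower and 1 higher, beside 22.5% and 25.1% of all genes. Chpf2, a chondroitin polymerizing factor, was at 32.7, 31.3 and 66.6 CPM in Runx1_FB_KO, against 111, 95.4 and 110 CPM in CTL (log2 fold change -1.27, edgeR adjusted p = 0.0705). Fam20b, the kinase that phosphorylates the xylose of the linkage region, had a positive value, at 144, 144 and 77.7 CPM in Runx1_FB_KO, against 60.6, 68.8 and 59.3 CPM in CTL (0.95, adjusted p = 0.0801).

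For keratan sulfate synthesis 9 of 11 genes were tested, 7 with negative and 2 with positive log2 fold changes (median -0.40), and 4 of the 9 were called lower without Runx1_FB_KO replicate 3 (22.5% of all genes). The sulfotransferases Chst2 and Chst1 had log2 fold changes of -1.27 and -1.15 (edgeR adjusted p = 0.0753 and 0.0993). Among 20 ligands and receptors of these proteoglycans 19 had negative log2 fold changes (median -0.85), and 16 of the 20 were called lower without Runx1_FB_KO replicate 3 (22.5% of all genes). Those with the smallest p were Egfr (-0.87, edgeR adjusted p = 0.114) and Tlr2 (-0.82, 0.122), a Toll-like receptor that binds biglycan. Col1a1, the main collagen that these proteins bind, was at 1880, 1959 and 8606 CPM in Runx1_FB_KO and 11429, 9203 and 10090 CPM in CTL. Among 16 processing genes 15 were tested, with 11 negative and 4 positive log2 fold changes (median -0.36), and 6 of the 15 were called lower without that library (22.5% of all genes). Tpst1 and Tpst2, the enzymes that sulfate tyrosines such as those of fibromodulin, had log2 fold changes of -0.44 and -0.36 (edgeR adjusted p = 0.118 and 0.123).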

How the data were processed

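Each library is 1 heart, and the 3 Runx1_FB_KO and 3 CTL libraries were compared. The authors deposited estimated counts (Salmon reads per transcript, not whole), TPM and effective length for 116546 transcripts per library. The submitters' processing notes name Salmon 1.5.2, DESeq2 1.44.0 and mm10 (GRCm38); the annotation release is not given in the sources used here. Reads of 115977 transcripts were summed over 35498 genes with GENCODE M21 (GRCm38), and the 569 unmatched transcripts (at most 0.102% of a library's reads) were left out. Sums were rounded. The deposited TPM values, summed per gene, served for levels and ratios between genes, because they are per length. TPM sums to 1000000 in every library, so other abundant RNA lowers it.

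All genes were tested with edgeR 4.0.16 (filterByExpr, TMM scaling, quasi-likelihood, genotype alone, R 4.3.3), with Benjamini-Hochberg adjustment over the 14237 genes kept and a threshold of 0.05. CPM is scaled by TMM throughout. Standard errors (SE) come from the F statistic and the log2 fold change. Ratios between paralogs were tested by exact two-sided permutation over libraries. DESeq2 1.42.0, limma 3.58.1 (voom), other scalings, filters and covariates, a replicate block and omission of each library were the alternatives; 3 fits without Runx1_FB_KO replicate 3 (voom, DESeq2 and sex as a covariate) and a sex by genotype fit were added after seeing the data. The tests were checked on simulated counts in which all knockout libraries changed alike. That check does not cover a library that stands apart, such as Runx1_FB_KO replicate 3.

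The 10 members and the other lists were chosen with earlier results of these data known. The text names all 10, the 2 tested genes with the smallest p of each other list outside the cell type markers where none passed, and the 5 protein-coding genes (mean log2 CPM of at least 4, prior count 2) nearest to Dcn and to Bgn by root mean square distance of centred log2 CPM. Col1a1, Ecm2, Postn, Pdgfra, Gsn, Scara5, Dpep1, Pi16, Des, Cnn1, Abcc9, Matn1 and Col9a1 were named after their values were seen, and Runx1 as the targeted gene.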

Additional observations from a re-analysis of the deposited data

Results flagged for a closer look

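For Dcn, Podn and Omd every knockout mouse lay above CTL in females and below CTL in males. On the log2 CPM scale Runx1_FB_KO minus CTL was 0.62 in females and -0.37 in males for Dcn, 0.50 and -0.21 for Podn, and 1.51 and -0.34 for Omd. Prelp (0.39 in females, -1.19 in males) and Lum (0.02 and -1.07) also had opposite signs but overlapped in females, and the value was higher in females than in males for all 9 members. The females were 2 Runx1_FB_KO mice and 1 CTL mouse, and the males 1 Runx1_FB_KO mouse and 2 CTL mice. In a sex by genotype fit over 14237 genes, edgeR called 0 of the 9 members and 0 genes (0%), with 276 genes at an unadjusted p under 0.05. The difference between the effects in females and males was 1.02 for Dcn, 0.72 for Podn and 1.99 for Omd, each with an edgeR adjusted p of 1. With 1 mouse in 2 of the 4 cells, sex and the single mouse cannot be told apart.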

How the results depend on the processing

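Called members stayed at 0 under every alternative that kept all 6 libraries, and ran from 0 to 4 when a library was left out. The 4 came without Runx1_FB_KO replicate 3, also by voom, by DESeq2 and with sex as a covariate, where Ogn passed (-1.07) and Lum did not. Genes called were 0 with all libraries, 889 without a low count filter, 2810 by DESeq2 and 2311 at an adjusted p under 0.1. They were 6947 without Runx1_FB_KO replicate 3 and 0 when any other library was left out. Without Runx1_FB_KO replicate 3 they were 6428 by voom, 7203 by DESeq2 and 7177 with sex as a covariate. Genes called on the other lists outside the cell type markers were 0 of 78 with all libraries and 1 of 84 without a filter (4.4% of all genes). DESeq2 called 9 of 83, 2 higher and 7 lower, beside 14.6% and 5.04% of all genes. Without Runx1_FB_KO replicate 3 the count was 47 of 79, 1 higher and 46 lower, beside 25.1% and 22.5% of all genes. Omission of any other library left 0. In the same 3 fits the counts were 46 of 79, 48 of 84 and 50 of 79, beside 44%, 46.1% and 49.1% of all genes. With the cardiomyocyte score as a covariate signs turned for Bgn (1.25), Lum (0.11), Fmod (1.99), Ogn (0.28), Aspn (0.79) and Prelp (0.48), with edgeR adjusted p of 0.90 to 0.98. The score followed the groups, so that fit cannot tell genotype and score apart, and the cause was not tested. Dcn turned to 0.026 by voom, 0.12 with sex as a covariate and 0.023 with the replicate block, and ran from -0.27 to 0.27 when a library was left out. Podn turned to 0.14 with sex as a covariate and ran from -0.33 to 0.13, and Omd turned to -0.33 by library size alone and ran from -0.32 to 0.36. Without Runx1_FB_KO replicate 3, Dcn was 0.065 by voom, 0.005 by DESeq2 and 0.12 with sex as a covariate, Podn 0.035 by voom and 0.12 with sex as a covariate, and Omd -0.067 by DESeq2. The replicate block called 0 members and 0 genes. Deviations of same-numbered libraries correlated at -0.05, 0.11 and 0.08. With 3 mice a group this cannot tell whether the numbers pair the mice, and the labels give no pairing. The 6 ratios kept their sign under every alternative. Aspn to Dcn ran from -2.60 to -1.06, Bgn to Dcn from -2.34 to -1.15 and Fmod to Prelp from -3.23 to -1.57 when a library was left out. Omd rests on few reads, which limits its precision. P-values measure the spread between 3 mice a group.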
